A study of Mus musculus with 8 samples.

Results

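The repressor-type Klf factors and the Sp factors are zinc finger proteins that share a DNA-binding domain with KLF1 and KLF2 and bind GC-rich and CACCC elements in promoters. The genes followed here were taken by name. They are Klf3 and Klf12 of the CtBP-binding subgroup, Klf9, Klf10, Klf13 and Klf16 of the Sin3-binding subgroup, Klf15, and Sp1, Sp3 and Sp4. The array carried 22 probe sets annotated to these 10 genes, of 22626 probe sets and 12393 named genes in all, and every one was kept. A probe set is a group of short probes that reports 1 stretch of a transcript. Each of the 10 genes had at least 1 probe set, with 7 for Klf9, 3 each for Klf3 and Klf13, 2 each for Sp1 and Sp4, and 1 for each of the others.

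RNA came from primitive erythroid precursors, the first red cell precursors of the embryo, taken from mouse yolk sacs at embryonic day 9.5. There were 4 arrays labelled KLF2-/- (replicates 11, 12, 13 and 14) and 4 arrays labelled wild type FVB/N (replicates 3, 5, 7 and 9). KLF2-/- stands for loss of both Klf2 alleles, with embryos genotyped by PCR on tail tissue. No strain is named for that line, so strain and genotype cannot be told apart, and its dams appear as KLF2-/- in one description and as KLF2+/- in another. Cells were captured by laser from stained frozen sections of 8 µm, and each replicate pooled 2 to 4 yolk sacs of 2 litters. The arrays labelled knockout used 10 to 20 ng of RNA from 3600 to 4400 cells, the wild-type arrays 10 to 39 ng, amplified in 2 cycles before hybridisation. In such pools a change in RNA per cell and a change in the share of cells of a type cannot be told apart.

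KLF3 and KLF12 recruit the corepressor CtBP, and KLF3 is itself induced by KLF1 in red cell precursors and represses some genes that KLF1 activates. KLF9, KLF10, KLF13 and KLF16 recruit Sin3A with its histone deacetylases through a short amino-terminal helix. SP1 and SP3 activate or repress GC box promoters of broadly expressed genes, and loss of SP1 or SP3 in the mouse is lethal. KLF15, a regulator of glucose and amino acid metabolism in liver and muscle, belongs to neither corepressor subgroup.

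Promoters of these genes were searched for the elements that their proteins bind, and 3 of them are shown because Klf3, Sp1 and Klf9 stand for the CtBP-binding, Sp and Sin3-binding classes in the results below. Each is the 250 bases before the annotated start of transcription, from RefSeq on GRCm38.p6, written from 5′ to 3′ on the strand of the gene. Capitals mark GC boxes (GGGCGG) and CACCC boxes (CACCC), searched on both strands with overlaps allowed.
Klf3, chr5:64803271-64803520, plus strand: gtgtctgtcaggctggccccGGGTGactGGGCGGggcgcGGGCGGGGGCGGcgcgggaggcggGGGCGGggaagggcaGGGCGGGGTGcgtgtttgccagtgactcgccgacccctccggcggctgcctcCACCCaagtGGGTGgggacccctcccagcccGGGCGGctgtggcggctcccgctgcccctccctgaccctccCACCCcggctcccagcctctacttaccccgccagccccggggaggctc
Sp1, chr15:102406066-102406315, plus strand: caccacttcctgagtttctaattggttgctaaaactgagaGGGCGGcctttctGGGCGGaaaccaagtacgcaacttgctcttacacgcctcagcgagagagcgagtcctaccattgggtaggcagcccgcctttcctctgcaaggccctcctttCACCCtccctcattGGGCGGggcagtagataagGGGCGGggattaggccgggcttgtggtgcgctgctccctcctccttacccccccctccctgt
Klf9, chr19:23140976-23141225, plus strand: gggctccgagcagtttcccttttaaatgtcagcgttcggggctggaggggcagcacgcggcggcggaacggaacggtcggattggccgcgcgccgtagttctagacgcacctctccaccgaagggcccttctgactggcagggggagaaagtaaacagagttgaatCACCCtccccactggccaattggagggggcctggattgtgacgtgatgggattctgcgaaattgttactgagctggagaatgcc
The Klf3 window held 6 GC boxes and 5 CACCC boxes, the Sp1 window 4 and 1, and the Klf9 window 0 and 1. RefSeq windows were matched for 8 of the 10 genes, 9 windows in all, and 7 of the 9 held a GC box and 7 held a CACCC box. Of all 32851 windows of this length, 32.7% held a GC box and 52.0% a CACCC box. A match describes letters only, and no binding was measured.

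Values are log2 expression values normalised by the authors, so a difference of 1 is a change of 2-fold, and differences are arrays labelled knockout minus wild type. The array medians lay between 5.08 and 5.20. Brightness depends on the probes, so brighter and dimmer describe the signal of a probe set and not the abundance of its transcript. The mean over all arrays reached the median of all probe sets (5.14) for 12 of the 22 probe sets. The other 10 lay below it; no file used here says how far a value lies above background.

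Klf2, the targeted gene, did not read lower under the knockout label. The Klf2 probe set read 5.38, 5.77, 7.15 and 5.89 in arrays labelled knockout 11 to 14 and 5.18, 5.28, 4.97 and 5.70 in wild-type arrays 3, 5, 7 and 9. Array 13 was the highest and the difference was 0.77 (SE 0.35). The position of its probes relative to the deletion is unknown here, so the Klf2 values check nothing, and the groups go by their labels throughout. Signal of erythroid genes was high, with Hbb-bh1 between 14.01 and 14.17 and Hbb-y between 13.16 and 13.81 on every array, and all 15 measured erythroid markers at or above the median of genes. Some markers of neighbouring cells read above the array medians too. Afp of visceral endoderm read 11.26 to 13.02, Col3a1 of mesenchyme 10.20 to 12.51, and Kdr of endothelium 5.95 to 7.44. At or above the median of genes were 14 of 19 endoderm, 15 of 20 mesenchyme, 11 of 20 endothelial and 4 of 16 macrophage markers. A median divides all genes evenly, so the endothelial count lay near that share and the macrophage count below it.

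None of the 10 genes passed the test between the groups, which with 4 arrays a group does not show that their levels were equal. With limma and Benjamini-Hochberg adjustment, 0 of the 22 probe sets passed an adjusted p of 0.05 (background 0.00% of 22626), and their adjusted p-values ran from 0.860 to 0.988. At an unadjusted p under 0.05 there was 1 of 22, a Klf13 probe set, beside 5.40% of all probe sets. The groups did not overlap at 0 of 22, beside 2.99% of all. Of the 22 probe sets 13 were higher in the arrays labelled knockout and 9 lower, with a median difference of 0.06, beside 52.2% higher and a median of 0.01 over all probe sets. Standard errors ran from 0.11 to 0.86, and no probe set differed by as much as 2-fold.

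**Figure D1:**
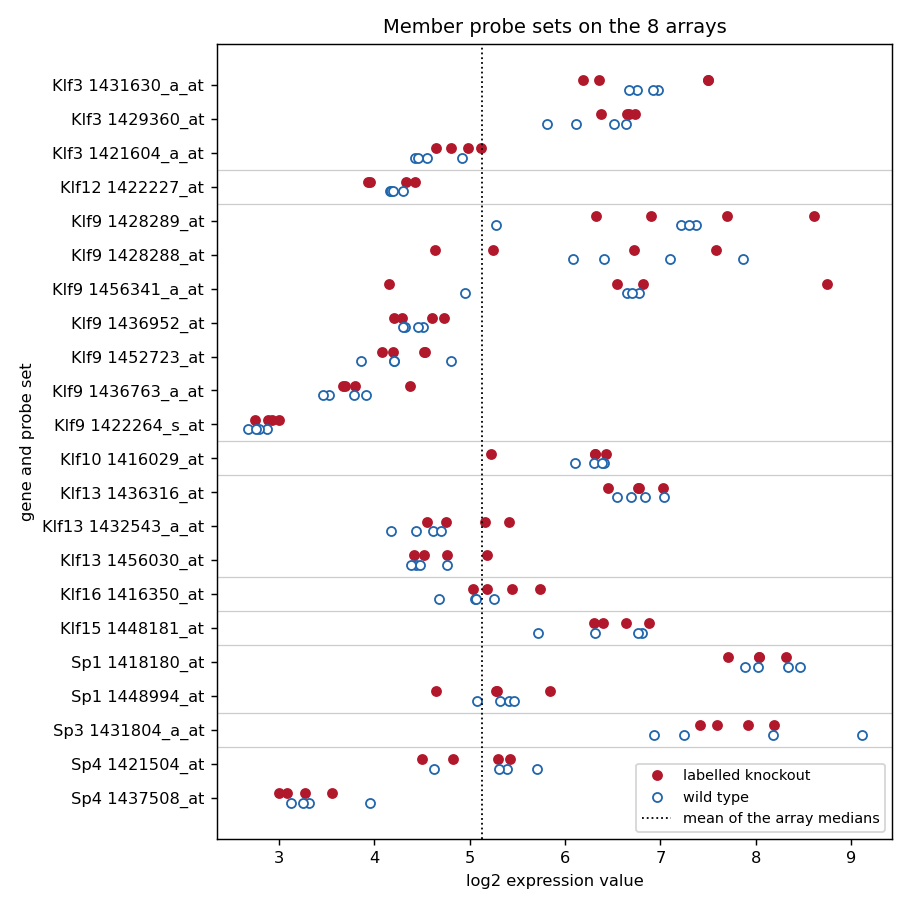
Log2 expression value (horizontal axis) of each of the 22 probe sets (vertical axis, by gene) on the 4 arrays labelled knockout (filled) and the 4 wild-type arrays (open); the dotted line is the mean of the array medians. The groups overlap for all 22 probe sets, and the Klf9 probe sets 1428288_at, 1428289_at and 1456341_a_at spread most widely.

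Of the CtBP-binding genes, Klf3 was measured by 3 probe sets, and all 3 averaged higher in the arrays labelled knockout without passing the test. The probe set 1429360_at read 6.64, 6.67, 6.38 and 6.73 in arrays labelled knockout 11 to 14 and 5.82, 6.12, 6.51 and 6.63 in wild-type arrays 3, 5, 7 and 9. Wild-type arrays 3 and 5 were the low ones, and wild-type arrays 7 and 9 lay among the arrays labelled knockout. Its difference was 0.34 (SE 0.19, adjusted p = 0.860, limma). The dimmer 1421604_a_at differed by 0.30 (SE 0.16), with values of 4.80, 5.12, 4.64 and 4.98 against 4.55, 4.43, 4.46 and 4.92. Here wild-type array 9 alone reached the range of the other group, and without it the differences of these Klf3 probe sets were 0.46 and 0.41. Without wild-type arrays 3 and 5 they were 0.033 and 0.20.

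The brightest Klf3 probe set, 1431630_a_at, split the arrays labelled knockout. It read 6.18, 6.36, 7.50 and 7.50 in them and 6.97, 6.76, 6.67 and 6.92 in wild type. Arrays labelled knockout 11 and 12 lay below every wild-type array and 13 and 14 above every one, so a mean difference of 0.06 (SE 0.31) describes neither pair. The other Klf3 probe sets did not split these arrays in this way. Klf12, the second CtBP-binding gene, read 3.96, 3.94, 4.33 and 4.43 against 4.17, 4.30, 4.18 and 4.19, with arrays 11 and 12 again lowest and 13 and 14 highest, at values below the array medians (4.16 ± 0.25 against 4.21 ± 0.06, SD, n = 4). This order of arrays was not particular to Klf3 and Klf12. The progenitor marker Flt3 read 5.22, 5.40, 6.06 and 6.17 against 5.85, 5.87, 5.77 and 5.91. The thyroid hormone receptor gene Thrb read 3.77, 3.73, 4.25 and 4.46 against 4.09, 4.22, 4.03 and 3.87. The array medians were also highest in arrays 13 and 14 (5.19 and 5.20). How many genes share the order was not counted.

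Klf9 was the member whose values moved most, and most of that spread lay within the groups. KLF9 is induced by glucocorticoid and by thyroid hormone in many cell types. Its brightest probe set, 1428289_at, read 6.90, 7.70, 8.61 and 6.33 in the arrays labelled knockout and 7.22, 7.37, 5.28 and 7.30 in wild type. Array 13 was highest and wild-type array 7 lowest, and the difference of 0.59 had an SE of 0.59 (adjusted p = 0.909, limma). The probe set 1456341_a_at followed the same arrays, at 6.55, 6.82, 8.74 and 4.15 against 6.65, 6.77, 4.95 and 6.70. Its values spanned 4.59 log2 units, from array 14 at the bottom to array 13 at the top, both labelled knockout.

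Another bright Klf9 probe set, 1428288_at, had the opposite sign. It read 5.25, 6.72, 7.58 and 4.64 in arrays labelled knockout 11 to 14 and 7.11, 7.87, 6.08 and 6.40 in wild-type arrays 3, 5, 7 and 9, a difference of -0.82 (SE 0.65, adjusted p = 0.887, limma). Array 13 was again the highest of its group and array 14 the lowest, while wild-type array 5 exceeded all others. Pooled within-group SDs of 1.00, 1.11 and 1.47 for 1428289_at, 1428288_at and 1456341_a_at lay at percentiles 98.8, 99.2 and 99.8 of all probe sets. The remaining 4 Klf9 probe sets read between 2.67 and 4.81 and differed by 0.06 to 0.21. Without wild-type array 7 the difference of 1428289_at was 0.088, and without wild-type arrays 3 and 5 it was 1.09, beside -0.20 for 1428288_at. For 1456341_a_at it was -0.43 without array 13 and 1.10 without array 14.

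**Figure D2:**
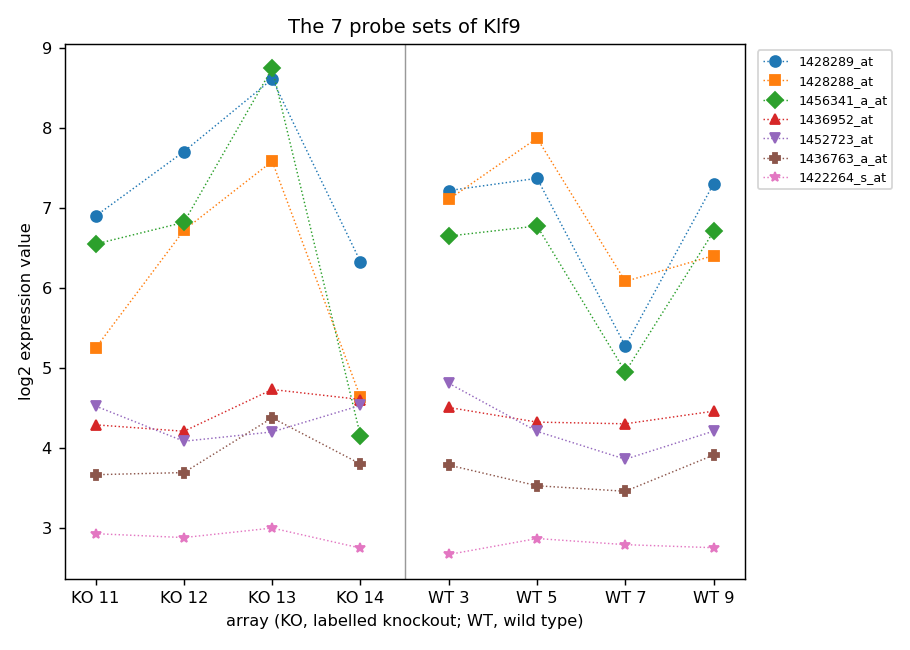
Log2 expression value (vertical axis) of the 7 Klf9 probe sets on each array (horizontal axis); thin dotted lines only join the values of a probe set, since the arrays have no order. The 3 bright probe sets are all highest in their group in array 13 and lowest in array 14 of the arrays labelled knockout, while the 4 dim ones stay between 2.67 and 4.81.

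The probe sets 1428289_at and 1428288_at carry the same source accession in the platform annotation, and their difference was taken within each array, as for every pair of probe sets of 1 gene. The value of 1428289_at minus 1428288_at was 1.65, 0.98, 1.03 and 1.69 in arrays labelled knockout 11 to 14 and 0.11, -0.50, -0.81 and 0.90 in wild-type arrays 3, 5, 7 and 9. The groups did not overlap, with means of 1.34 ± 0.39 and -0.07 ± 0.75 (SD, n = 4), a difference of 1.41 (SE 0.36). By limma over all 12821 pairs of probe sets of 1 gene the adjusted p was 0.603, and 0 pairs passed, with 1009 at an unadjusted p under 0.05. Of the 29 such pairs of the 10 genes, 1 did not overlap, beside 4.24% of all pairs, so the share is near the background. This comparison was chosen after the values were seen, as the pair with the smallest unadjusted p by limma among the 29.

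Klf10, an early response gene of TGF-beta signalling, was alike on 7 arrays and low on 1. It read 6.31, 6.32, 6.43 and 5.23 in the arrays labelled knockout and 6.41, 6.30, 6.39 and 6.10 in wild type. Array 14 stood below the other 7, which lay between 6.10 and 6.43, and the difference was -0.23 (SE 0.26, adjusted p = 0.924, limma). Without that array it was 0.05, so its sign rests on array 14.

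Klf13, which regulates the chemokine gene Ccl5 in T cells, had the single probe set with an unadjusted p under 0.05. That probe set, 1432543_a_at, read 5.16, 5.41, 4.75 and 4.55 in the arrays labelled knockout and 4.62, 4.17, 4.43 and 4.70 in wild type. Arrays 11, 12 and 13 were above every wild-type array, the last by 0.05, and array 14 lay among the wild-type values. Its difference was 0.49 (SE 0.21, adjusted p = 0.860, limma), a 1.40-fold difference at a mean level below the median of all probe sets. Its unadjusted p was 0.0471 by limma, 0.0920 after quantile normalisation, 0.0812 after median centring and 0.114 by the exact permutation test. The brightest Klf13 probe set, 1436316_at, did not show it, at 6.45, 6.77, 7.02 and 6.76 against 6.84, 6.69, 7.04 and 6.55 and a difference of -0.03 (SE 0.16). The remaining one, 1456030_at, differed by 0.20 (SE 0.18), with array 14 highest.

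Klf16, a less studied member of the Sin3-binding subgroup, read 5.18, 5.04, 5.45 and 5.74 in the arrays labelled knockout and 5.05, 4.68, 5.26 and 5.07 in wild type. The values overlapped between 5.04 and 5.26, and the difference was 0.34 (SE 0.19, adjusted p = 0.860, limma). Klf15 read 6.40, 6.30, 6.88 and 6.64 against 6.80, 5.72, 6.31 and 6.77. Wild-type array 5 was the lowest of all 8, and without it the Klf15 difference turned from 0.15 to -0.07.

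All 5 Sp probe sets averaged slightly lower in the arrays labelled knockout and none passed the test, while without wild-type arrays 3 and 5 those of Sp3 and Sp4 averaged higher (0.69, 0.047 and 0.040). Sp1, the founding member of the family, read 7.71, 8.03, 8.32 and 8.03 in the arrays labelled knockout and 8.46, 7.88, 8.34 and 8.02 in wild type by its brighter probe set, 1418180_at. The groups overlapped over most of their range, with SDs of 0.25 and 0.27 and a difference of -0.15 (SE 0.18, adjusted p = 0.928, limma). Its dimmer probe set, 1448994_at, ran from 4.65 in array 11 to 5.85 in array 13, with all wild-type arrays between, and differed by -0.06 (SE 0.23). With 1 array left out that difference ran from -0.25 to 0.15.

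Sp3 divided the wild-type arrays. Sp3 encodes long and short protein forms, of which the short ones repress. Its single probe set, 1431804_a_at, read 8.19, 7.92, 7.42 and 7.60 in the arrays labelled knockout and 8.18, 9.11, 6.93 and 7.25 in wild type. Wild-type array 5 lay above every array labelled knockout and wild-type array 3 beside the highest of them, while wild-type arrays 7 and 9 lay below all of them. The difference over all arrays was -0.09 (SE 0.44, adjusted p = 0.986, limma). With wild-type arrays 3 and 5 left out it was 0.69, with an adjusted p of 1.00 by limma.

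Sp4, best known from neurons, read 4.83, 4.50, 5.30 and 5.42 against 5.71, 5.40, 5.31 and 4.62 by 1421504_at, a difference of -0.25 (SE 0.27, adjusted p = 0.924, limma). The second probe set, 1437508_at, was dim (3.00 to 3.96) and differed by -0.18 (SE 0.21). Wild-type array 3 was the highest of all 8 arrays on both Sp4 probe sets.

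**Figure D3:**
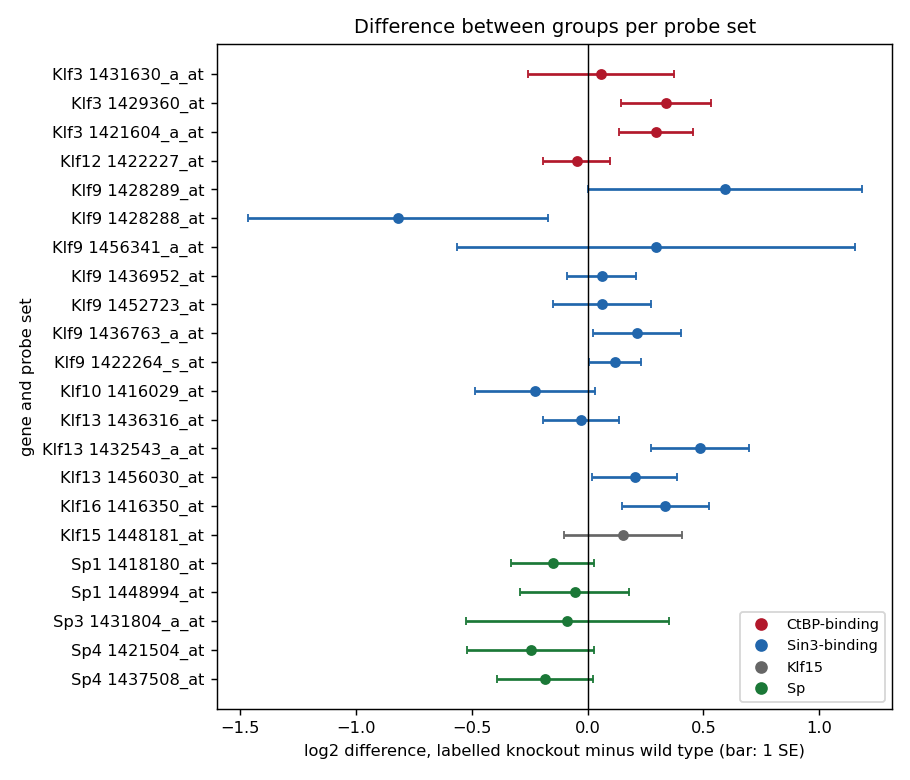
Log2 difference, labelled knockout minus wild type (horizontal axis), for each of the 22 probe sets (vertical axis), with bars of 1 SE from limma and colours by class. The Klf3 and Klf16 points lie to the right of 0 and all 5 Sp points to the left, none of them past the test, and the widest bars belong to Klf9. The points of Sp3 and Sp4 turn without wild-type arrays 3 and 5. With 1 array left out, Klf3 1431630_a_at ran from -0.15 to 0.29 and Sp1 1448994_at from -0.25 to 0.15.

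In the authors' deposited table, which gives a signed S-score with a p and a q per probe set, none of the 22 probe sets reached a q of 0.05, beside 0.968% of all. Its direction is not in the header, and a positive S-score was taken to mean a higher value in the knockout label, since it rose with the log2 difference across probe sets (r = 0.80, probe sets not being independent). There, in the authors' deposited table, a p under 0.05 stood at 2 of 22, beside 7.64% of all, and both were Klf9 probe sets. These were 1428289_at with an S-score of 2.40 (q = 0.383) and 1456341_a_at with 2.27 (q = 0.456), while 1428288_at scored -1.72 in the authors' deposited table. The score and the log2 difference had the same sign for 19 of the 22 probe sets, beside 16864 of all 22626. Since the direction of the score was set from these differences, the match in sign is no separate check. The 3 exceptions were 1456030_at of Klf13 and 1436763_a_at and 1452723_at of Klf9.

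Marker genes of other cell types varied between arrays, on some of the same arrays as members and not on others. The deviation of a marker list is the mean of its genes' distance from their own mean over the 8 arrays. Erythroid markers (15 genes) lay at 0.45, -0.11, -1.04 and 0.66 in arrays labelled knockout 11 to 14 and at -0.55, -0.38, 0.51 and 0.47 in wild-type arrays 3, 5, 7 and 9. Visceral endoderm markers (19 genes) lay at -0.10, 0.58, 0.77 and -1.52 and at -0.19, 0.06, 0.00 and 0.39. Array 13, highest of all arrays in Klf9 1428289_at and 1456341_a_at, was lowest in erythroid and highest in endoderm markers, and array 14, lowest in Klf10 and in 2 of the bright Klf9 probe sets, was lowest in endoderm markers. Wild-type arrays 3 and 5, highest in Sp3 among wild type, had the lowest erythroid markers of their group. Wild-type array 7 was the lowest of its group in Klf9 1428289_at and 1456341_a_at. Its list means did not stand out for endoderm (0.00) or mesenchyme (0.06), and its erythroid mean was the highest of its group (0.51). Single endoderm markers went both ways on this array. Some, such as Hnf4a (8.12), Foxa2 (5.25), Dab2 (9.68) and Sox17 (5.71), were lowest of the wild-type group there. Others, such as Apoa1 (12.16) and Apoe (8.49), lay above wild-type arrays 3 and 5.

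Mesenchyme and mesothelium markers (20 genes) ranged from -0.75 to 0.54 in the arrays labelled knockout and from -0.42 to 0.15 in wild type. Endothelial markers (20 genes) ranged from -0.17 to 0.55 and from -0.37 to 0.16. By gene, 16 of 20 endothelial, 12 of 16 macrophage, 10 of 20 mesenchyme, 9 of 19 endoderm and 6 of 15 erythroid markers were higher in the arrays labelled knockout, beside 53.4% of all genes. The erythroid count was 11 without array 13 and 1 without wild-type arrays 3 and 5. Without array 14 the endoderm count was 14, and without array 13 the mesenchyme count was 7. Over these same changes the endothelial count was 15 to 17 and the macrophage count 11 to 12. The groups did not overlap for 1 endothelial and 2 macrophage markers, beside 2.61% of all genes. The macrophage gaps were small, for Mrc1 (7.066 against 7.063) and Cd14 (5.058 against 5.028). An unadjusted p under 0.05 stood at 3 endothelial and 2 macrophage markers, beside 4.80% of all genes, with 0 calls by limma. The mesenchyme, megakaryocyte and progenitor lists had 1 such gene each. Macrophage, megakaryocyte and progenitor markers ranged from -0.33 to 0.30 over all arrays. Array 14 had the lowest mesenchyme markers as well. The part of other cells in the values of Klf9, Klf10 and Sp3 was not tested.

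**Figure D4:**
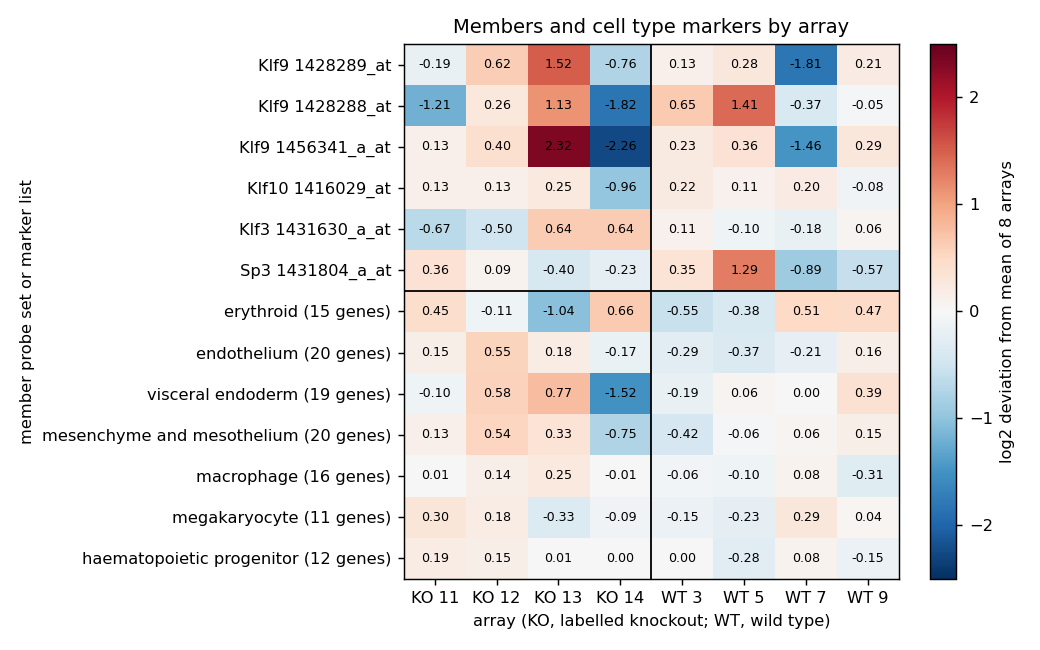
Deviation of each array (horizontal axis) from the mean of the 8 arrays, in log2 units, for 6 member probe sets (upper rows) and for the mean of each marker list (lower rows), with the value printed in each cell. Array 13 stands at 1.52 for Klf9 1428289_at with erythroid markers at -1.04, and array 14 at -0.96 for Klf10 with endoderm markers at -1.52.

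The corepressors and coactivators through which these factors act gave no call either. Lists are described by 1 probe set per gene, the brightest, beside all 12393 genes, of which 0.00% passed the adjusted p, 4.80% had an unadjusted p under 0.05, 53.4% were higher and the median difference was 0.02. Of 13 measured genes of the CtBP complex, 7 were higher and 6 lower (median 0.02), with 0 at an unadjusted p under 0.05. Ctbp1 and Ctbp2 themselves differed by 0.38 (SE 0.28) and 0.25 (SE 0.17), and without wild-type arrays 3 and 5 Ctbp1 was at -0.048. By smallest p the list was led by the zinc finger genes Rreb1 (-0.35) and Zeb1 (-0.42), Wiz (0.28), a partner of the G9a methyltransferase, and Ctbp2. Without wild-type arrays 3 and 5 Rreb1 was at -0.16, Zeb1 at -0.41, Wiz at 0.23 and Ctbp2 at 0.26. Zeb1 was at -0.19 without array 14.

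Of 21 measured Sin3 complex genes, 12 were higher and 9 lower (median 0.03), and 1 had an unadjusted p under 0.05. This was Ing2, a reader of methylated histone H3, at 0.77 (SE 0.26, adjusted p = 0.905, limma). Next came the Sin3 subunit Suds3 (0.75), the Max partner Mxi1 (0.42) and Sap30l (0.33), while the scaffolds Sin3a and Sin3b differed by -0.35 (SE 0.30) and -0.01 (SE 0.24). Without wild-type arrays 3 and 5 Suds3 was at 0.049, Mxi1 at -0.10, Sap30l at -0.064 and Sin3b at 0.28, while Ing2 was at 0.54. The CtBP and Sin3 lists share Hdac1 and Hdac2, and the Sin3 median was -0.01 without array 13 and without array 14. Without wild-type arrays 3 and 5 the CtBP median was -0.05. Of 19 measured Sp coactivators 10 were higher and 9 lower (median 0.03), with 14 higher and a median of 0.10 without array 13, and 11 higher and a median of 0.11 without wild-type arrays 3 and 5. Tbp, the TATA-binding protein gene, differed by 0.39 (SE 0.16, adjusted p = 0.905, limma), followed by the acetyltransferase genes Crebbp (0.45) and Kat2a (0.41) and the Mediator gene Med26 (0.26).

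Genes of the pathways known to induce Klf10 and Klf9 gave no call. Of 14 TGF-beta signalling genes 8 were higher (median 0.11) and 2 had an unadjusted p under 0.05, Smad2 (0.58, SE 0.21) and the inhibitory Smad7 (0.49, SE 0.19), both at an adjusted p of 0.905 by limma. Skil (-0.52) and the receptor gene Tgfbr1 (-0.39) followed, at -0.13 and -0.16 without wild-type arrays 3 and 5. Without array 13, 7 of these genes were higher and the list median was -0.02. Without wild-type arrays 3 and 5, 11 were higher and the median was 0.13. Of 13 genes induced by glucocorticoid or thyroid hormone, or encoding their receptors, 8 were higher (median 0.12), with 7 higher and a median of 0.044 without array 13, and 11 higher and a median of 0.16 without wild-type arrays 3 and 5. The kinase gene Sgk1 differed by -1.15 (SE 0.42) and the clock gene Per1 by 0.35 (SE 0.14), both at an adjusted p of 0.905 by limma. Per1 was the single gene of the cofactor and pathway lists whose groups did not overlap, beside 2.61% of all genes. Without wild-type arrays 3 and 5 Sgk1 was at -0.56 and Per1 at 0.22. Next were Cebpd (0.51, SE 0.30) and Ddit4 (1.16, SE 0.73), and Ddit4 was at 0.31 without array 13, which read 8.21 against 4.33 to 5.56 in the other arrays of its label. Nr3c1, the glucocorticoid receptor gene, differed by 0.11 (SE 0.26) and by -0.15 without array 13.

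**Figure D5:**
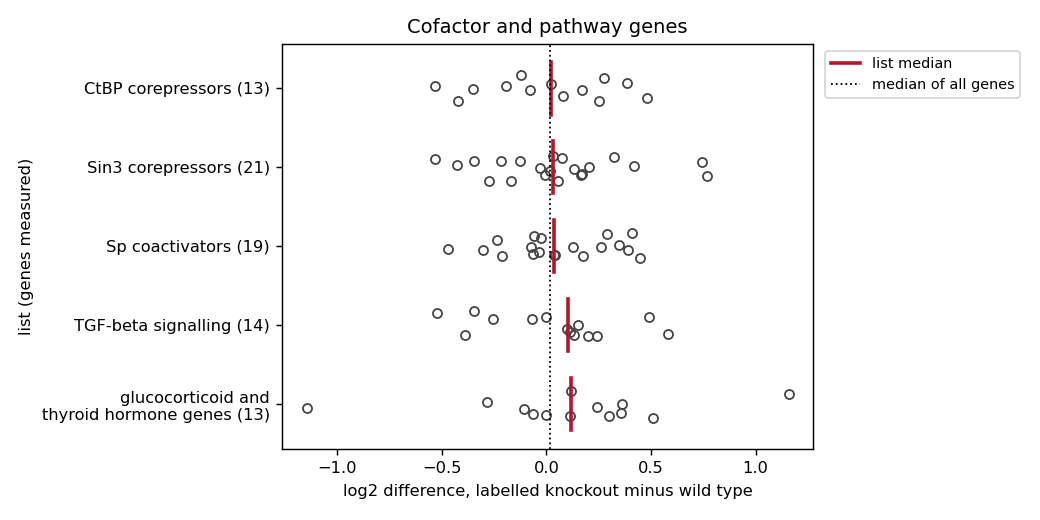
Log2 difference, labelled knockout minus wild type (horizontal axis), of each measured gene (circles, shifted vertically for legibility) in 5 lists (vertical axis), with the list median in red and the median of all genes dotted. The list medians lie between 0.02 and 0.12, and no gene passed the test.

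Genes reported elsewhere to be repressed by KLF3 in the mouse could be read for 2 of the listed names. Lgals3, which encodes galectin-3, differed by -1.08 (SE 0.88) and C1qtnf12, which encodes the adipokine adipolin, by 0.51 (SE 0.45), at adjusted p-values of 0.919 and 0.920 by limma. Both signs turned without wild-type arrays 3 and 5, to 0.43 for Lgals3 and -0.21 for C1qtnf12, and Lgals3 was at -0.24 without wild-type array 5 alone. The other Klf and Sp genes measured, 10 in number, had 6 higher and 4 lower (median 0.11), with 0 calls by limma and 0 at an unadjusted p under 0.05. Klf2 (0.77), Klf7 (0.34), Klf4 (0.40) and Klf17 (0.12) had the smallest p among them, and Klf1 differed by -0.17 (SE 0.50), by 0.21 without array 13 and by -0.86 without wild-type arrays 3 and 5. Klf2 was at 0.40 without array 13, and Klf4 at 0.14 without array 13 and 0.89 without wild-type arrays 3 and 5.

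Genes whose pattern over the 8 arrays was most like a member were sought among 6185 genes at or above the median level, by Pearson's r. Each member was represented by its brightest probe set, which other probe sets of the gene need not follow. So many genes were searched over so few arrays that the names are a description only. For Klf9 they were Mylip (r = 0.96) and Sox17 (r = 0.95), and Sox17 is on both the endoderm and the endothelial marker list used above. For Klf3 they were Utf1 and Sct (both r = 0.98), for Klf12 Pear1 (r = 0.98) and Slc45a2 (r = 0.97), and for Sp3 Zxdc and Procr (both r = 0.96). The Klf3 probe set used, 1431630_a_at, had r of -0.07 with 1421604_a_at and -0.13 with 1429360_at, so Utf1 and Sct describe that probe set only. Klf10 was closest to Vps26a and Mindy1 (both r = 0.97), Klf16 to Zfand2b (r = 0.96) and Tex261 (r = 0.95), Klf15 to Tmem63b (r = 0.94) and Mroh1 (r = 0.93), and Sp4 to Tti2 (r = 0.96) and Snhg1 (r = 0.95). The closest genes were less alike for Klf13, Tec (r = 0.90) and Clcn3 (r = 0.89), and for Sp1, Cklf (r = 0.85) and Grina (r = 0.84). For Klf10 and Vps26a Spearman's rho was 0.40, and Klf10 was far from its other values on array 14.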

How the data were processed

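A log2 value for each probe set was deposited by the authors for 4 arrays labelled KLF2-/- and 4 wild-type arrays. Per the submitters' processing notes, GCOS, RMA and affy were used, with no version or order. The authors also deposited a table of S-scores, a signed score for each probe set, and its p-value and q-value, whose method the sources used here do not describe. The number of arrays limits the precision.

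Values were used as deposited, with no filter. The test was limma 3.58.1 (R 4.3.3) over all 22626 probe sets, with no covariate and Benjamini-Hochberg adjustment, and calls made at an adjusted p under 0.05. Gene names came from the platform annotation, where no probe set of the 10 genes had several symbols. A gene in a list was represented by its probe set of highest mean. Per the labels each biological replicate pooled yolk sacs; whether replicates share litters is not stated, so p-values measure the spread between these samples.

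The genes and lists were chosen with earlier results of these data known. Named are all 22 probe sets, Klf1 and Klf2, up to 4 genes of smallest p per list, the first markers per list and the 2 most alike genes per member. Ctbp1, Sin3a, Sin3b and Nr3c1 fall outside that rule and were added after their values were seen. The same holds for Flt3 and Thrb, and for Hnf4a, Foxa2, Dab2, Sox17, Apoe and Mrc1 where they are named as markers. Alternatives were quantile normalisation, centring on array medians, leaving out dim probe sets, trend and robust fitting, array weights, an exact permutation test, other choices of probe sets and leaving out arrays, the last also per list gene, added after the data were seen. Wild-type arrays 3 and 5 were the only pair left out together, which does not mark them as faulty. Their array weights were 1.29 and 1.50, while arrays labelled knockout 13 and 14 had the lowest weights, 0.57 and 0.41. Leaving out another pair was not tried.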

Additional observations from a re-analysis of the deposited data

Results flagged for a closer look

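Within the groups of 4 arrays, 44 groups of values (22 probe sets in 2 groups) were searched for a single array far from the others, by Dixon's ratio of gap to range above its usual critical value. Chance flags about 1 in 20 groups, and 3 of 44 were found. The Klf10 probe set was at 5.23 in array 14 labelled knockout, while the other 3 arrays of that group lay between 6.31 and 6.43 (ratio 0.901). In wild-type array 7, Klf9 1428289_at was at 5.28 against 7.22 to 7.37 in the others (ratio 0.927). Klf9 1456341_a_at was at 4.95 in the same array against 6.65 to 6.77 (ratio 0.931). The 2 Klf9 findings share an array and a gene and are not independent.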

How the results depend on the processing

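No probe set of the 10 genes was called under any of 14 alternatives (quantile normalisation, median centring, dim probe sets left out, trend and robust fitting, array weights, each of 8 arrays left out, wild-type arrays 3 and 5 left out), and the lowest adjusted p by limma was 0.415, for Klf13 1432543_a_at with array weights. The count over all probe sets was 0 under each of them as well. At an unadjusted p under 0.05 the 22 probe sets gave 0 after quantile normalisation, after median centring and with dim probe sets left out, 1 with trend and robust fitting, with array weights and without wild-type arrays 3 and 5, and 0 to 3 with 1 array left out, and all probe sets gave 637 to 1962, with 2544 under array weights and 425 without wild-type arrays 3 and 5. The groups did not overlap at 914 to 1853 of all probe sets with 1 array left out and at 2111 without wild-type arrays 3 and 5. Of 298 differences recomputed for the 22 probe sets, 22 changed sign, in 12 probe sets, and 10 probe sets kept their sign throughout. With array weights Klf3 1431630_a_at turned to -0.25 and Klf9 1436952_at to -0.036. Without wild-type arrays 3 and 5, Sp3 1431804_a_at turned to 0.69 and Sp4 1421504_at and 1437508_at to 0.047 and 0.040. With the mean over its probe sets, the Klf13 gene difference turned from -0.03 to 0.22. With 1 array left out in turn, differences crossed 0 for Klf10 1416029_at (-0.35 to 0.054), Klf12 1422227_at (-0.14 to 0.029), Klf13 1436316_at (-0.12 to 0.074), Klf15 1448181_at (-0.074 to 0.29), Klf3 1431630_a_at (-0.15 to 0.29), Klf9 1436952_at (-0.030 to 0.14), Klf9 1452723_at (-0.074 to 0.24), Klf9 1456341_a_at (-0.43 to 1.10), Sp1 1448994_at (-0.25 to 0.15), Sp3 1431804_a_at (-0.40 to 0.33). The Klf9 pair difference, added after the data were seen, was 1.17 to 1.74 with 1 array left out and 1.29 without wild-type arrays 3 and 5, with an adjusted p by limma of at least 0.217. The smallest p that an exact permutation test of 4 against 4 arrays allows is 0.0286. For values turned by an alternative the cause was not tested. No paired analysis was possible because the groups share no replicate number.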
